A study of Mus musculus with 2 samples.

Results

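The globin genes and Alas2 were followed through 2 single-cell RNA libraries of sorted neonatal splenocytes, to separate barcodes of red cell precursors from T cell barcodes that carried globin molecules. The members were listed by name and not by their values. They are the adult alpha globins Hba-a1 and Hba-a2, the adult beta globins Hbb-bs and Hbb-bt, the embryonic globins Hbb-bh1, Hbb-y and Hba-x, the heme enzyme gene Alas2, and Ahsp. Of these 9 members, 8 had a row among the 32285 features of the table, and Ahsp was not analysed here. One library was from WT mice and the other from KO mice, which the label gives as Zfp335fl/flFoxp3-Cre. All mice were 7 days old and on the C57BL/6J strain. Per the study's methods, WT mice carried the same Foxp3 Cre allele, which drives YFP and Cre in cells that express Foxp3. Splenocytes went through red cell lysis and were sorted as YFP+ 7AAD- cells per the labels and as CD4+ YFP+ 7AAD- cells per the study's methods, a gate meant for regulatory T cells. The number of mice was not given, and with 1 library per genotype no difference between genotypes could be tested. Every interval below is an exact 95% interval that covers counting error only, and the spread between animals is unknown.

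Haemoglobin is a tetramer of alpha-type and beta-type globin chains, each holding a heme. In the mouse embryo, primitive red cells use Hba-x with Hbb-bh1 and Hbb-y, and definitive red cells of the fetal liver, spleen and marrow use Hba-a1, Hba-a2, Hbb-bs and Hbb-bt. Alas2 encodes the erythroid form of the first, rate-limiting enzyme of heme synthesis, which takes place partly in mitochondria and partly in the cytosol. Ahsp is a chaperone of free alpha chains. The neonatal mouse spleen is an erythropoietic organ, so red cell precursors are abundant in the tissue that was sorted.

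The alpha genes lie on chromosome 11 and the beta genes on chromosome 7 of the GRCm38 build, each with 3 exons, and Alas2 lies on the X chromosome with 11 exons. In GENCODE M21 coordinates of the whole gene, Hba-x spans chr11:32276400-32278116, Hba-a1 spans chr11:32283511-32284465 and Hba-a2 spans chr11:32296489-32297298, all on the plus strand. On the minus strand, Hbb-bt spans chr7:103812524-103813996, Hbb-bs spans chr7:103826534-103828096, Hbb-bh1 spans chr7:103841637-103843164 and Hbb-y spans chr7:103851749-103853216. Alas2 spans chrX:150547375-150570638 on the plus strand. The 250 bases upstream of the start are shown for the adult genes, which moved together over barcodes, and for the nearly silent embryonic genes and Alas2 to set beside them. The sequences are RefSeq's for GRCm38.p6, which matched 7 of the 8 measured members and had no entry for Hbb-bh1. They are counted from the start of RefSeq's transcript, which for some genes lies inside the GENCODE span above, so that part of a window can overlap that span. Capitals mark 4 motifs on either strand. The CCAAT box is read as ATTGG on the opposite strand. The CACCC box, a motif of Klf-type factors, is read there as GGGTG. The core GATAA of Gata factors is read there as TTATC. The TATAA core of the TATA box is read there as TTATA, and these last letters overlap in the upstream region of Alas2.
Hba-a1, plus strand, chr11:32283422-32283671: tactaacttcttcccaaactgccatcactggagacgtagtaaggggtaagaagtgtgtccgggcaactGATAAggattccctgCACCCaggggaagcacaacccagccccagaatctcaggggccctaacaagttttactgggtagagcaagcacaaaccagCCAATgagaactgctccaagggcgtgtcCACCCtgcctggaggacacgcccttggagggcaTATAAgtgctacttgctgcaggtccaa
Hbb-bs, minus strand, chr7:103827929-103828178: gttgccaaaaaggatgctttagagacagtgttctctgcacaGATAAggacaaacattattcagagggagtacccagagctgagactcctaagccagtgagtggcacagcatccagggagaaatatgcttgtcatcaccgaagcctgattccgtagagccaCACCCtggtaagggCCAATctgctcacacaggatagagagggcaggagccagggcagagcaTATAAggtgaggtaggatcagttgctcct
Hbb-bt, minus strand, chr7:103813924-103814173: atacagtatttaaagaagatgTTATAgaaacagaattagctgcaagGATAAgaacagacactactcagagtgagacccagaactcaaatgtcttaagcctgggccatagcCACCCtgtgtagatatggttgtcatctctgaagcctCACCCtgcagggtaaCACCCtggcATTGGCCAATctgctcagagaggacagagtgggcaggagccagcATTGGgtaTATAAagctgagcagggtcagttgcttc
Hba-x, plus strand, chr11:32276350-32276599: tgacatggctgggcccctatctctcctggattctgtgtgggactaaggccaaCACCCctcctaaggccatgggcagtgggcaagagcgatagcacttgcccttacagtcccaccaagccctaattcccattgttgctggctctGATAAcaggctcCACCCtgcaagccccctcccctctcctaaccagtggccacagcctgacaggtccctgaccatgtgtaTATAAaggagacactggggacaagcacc
Hbb-y, minus strand, chr7:103853208-103853457: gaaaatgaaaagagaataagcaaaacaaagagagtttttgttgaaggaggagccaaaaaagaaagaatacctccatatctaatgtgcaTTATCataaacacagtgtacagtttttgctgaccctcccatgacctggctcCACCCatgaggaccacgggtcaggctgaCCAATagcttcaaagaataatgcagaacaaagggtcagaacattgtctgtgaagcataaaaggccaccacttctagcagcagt
Alas2, plus strand, chrX:150547167-150547416: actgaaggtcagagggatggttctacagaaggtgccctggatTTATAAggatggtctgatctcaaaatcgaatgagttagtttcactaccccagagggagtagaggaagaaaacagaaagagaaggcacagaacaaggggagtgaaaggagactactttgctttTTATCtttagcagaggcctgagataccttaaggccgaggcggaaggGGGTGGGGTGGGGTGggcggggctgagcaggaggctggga
Of 32851 RefSeq promoters with the same window, 33.8% held the CCAAT motif, 52% the CACCC box, 22.6% the Gata core and 22.8% the TATA core. The TATA core began 27 bases before the start in Hba-a1, 29 bases before it in Hbb-bs, and 28 bases before it in both Hbb-bt and Hba-x. The upstream windows of Hba-a1 and Hba-a2 were identical over 247 bases once shifted by 3 bases, so the Hba-a2 window is not repeated. A match to so short a motif describes the letters only.

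The adult genes of each pair are near-identical copies, and this limits how reads can be split between them. The 429 coding bases of Hba-a1 and Hba-a2 differed at 1 base, C381T, counted from the first base of the start codon with the Hba-a1 base first. The 74 annotated bases after the stop codon of Hba-a1 had 0 differences from the first 74 of Hba-a2, which has 16 more. The stretch around the coding difference is shown with that base in capitals.
Hba-a1, coding bases 361 to 401: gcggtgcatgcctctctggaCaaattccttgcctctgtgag
Hba-a2, coding bases 361 to 401: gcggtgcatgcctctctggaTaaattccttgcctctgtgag
Hbb-bs and Hbb-bt also differed at 1 of 444 coding bases, C417T, but at 36 of 129 aligned bases after the stop codon, where 3′ reads fall. The split between Hba-a1 and Hba-a2 is therefore uncertain, and the sum of both is the safer value.

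The WT library held 14524 barcodes and 64567991 UMIs (unique molecular identifiers, each standing for 1 captured RNA molecule), and the KO library held 18134 barcodes and 65480052 UMIs. A filter of 300 genes or more and 5% mitochondrial UMIs or less left 8053 WT barcodes with a median of 5061 UMIs and 13767 KO barcodes with a median of 2713 UMIs. Zfp335, the gene deleted in the KO, had 400 UMIs in WT T barcodes and 45 in KO T barcodes, or 8.29 and 0.864 CPM (UMIs per 1000000 UMIs of the barcode set), in the direction of the labels. The libraries shared 70 barcode sequences, of which 29 were kept in both and 3 were erythroid in either. T barcodes, which carried at least 2 of 8 T cell genes and no other lineage, made up 91.7% of kept WT and 92.8% of kept KO barcodes. Foxp3 stood at 40.3 and 44.6 non-globin CPM in them, a scale on which UMIs are divided by those of all genes but the globin members.

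Adult globin UMIs made up 0.806% (0.803 to 0.808) of all kept UMIs in WT and 1.57% (1.565 to 1.571) in KO, and most of them sat in a small number of barcodes with red cell markers. An erythroid barcode carried at least 3 of 18 red cell membrane and precursor genes, such as Slc4a1 and Klf1, no globin among them, and at most 2 T cell genes. This strict set had 60 WT and 75 KO barcodes. It held 19.6% (19.5 to 19.7) of adult globin UMIs in WT and 17.6% (17.6 to 17.7) in KO, while barcodes with erythroid genes and 3 or more T cell genes held 64.1% and 60.1%. The limit of 2 T cell genes leaves out deep barcodes with few T cell UMIs among many others, so a second set was drawn after the data were seen. These T-marker-poor erythroid barcodes had the erythroid genes and less than 50% of the T barcodes' median T marker level per non-globin UMI.

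There were 177 T-marker-poor erythroid barcodes in WT and 174 in KO. They held 59.6% and 39.9% of kept adult globin UMIs, with medians of 428 and 1281.5 adult globin UMIs per barcode and highest values of 8167 and 17273. Their red cell genes summed to 6314 and 7631 non-globin CPM, against 34.3 and 48.7 in T barcodes, and their T cell genes to 671 and 1008, against 7678 and 7401. Both lists were used to choose the set, so these sums describe it. Late erythroid genes, which took no part in the choice, summed to 1138 and 1844 against 249.7 and 269 on the same scale. B cell, neutrophil and macrophage genes stood at 5.77, 28.8 and 4.32 non-globin CPM in the WT set and at 8.62, 53.5 and 4.31 in the KO set. Foxp3, whose locus drives the YFP used in the sort, stood at 3.84 and 5.17 in them. The remaining erythroid-marker barcodes, 91 in WT and 266 in KO, were rich in T cell genes and held 24.05% and 37.8% of adult globin. Of all erythroid-marker barcodes, 39 of 268 in WT and 84 of 440 in KO lay between 40% and 60% of the T median, near the limit that parts the sets.

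**Figure D1:**
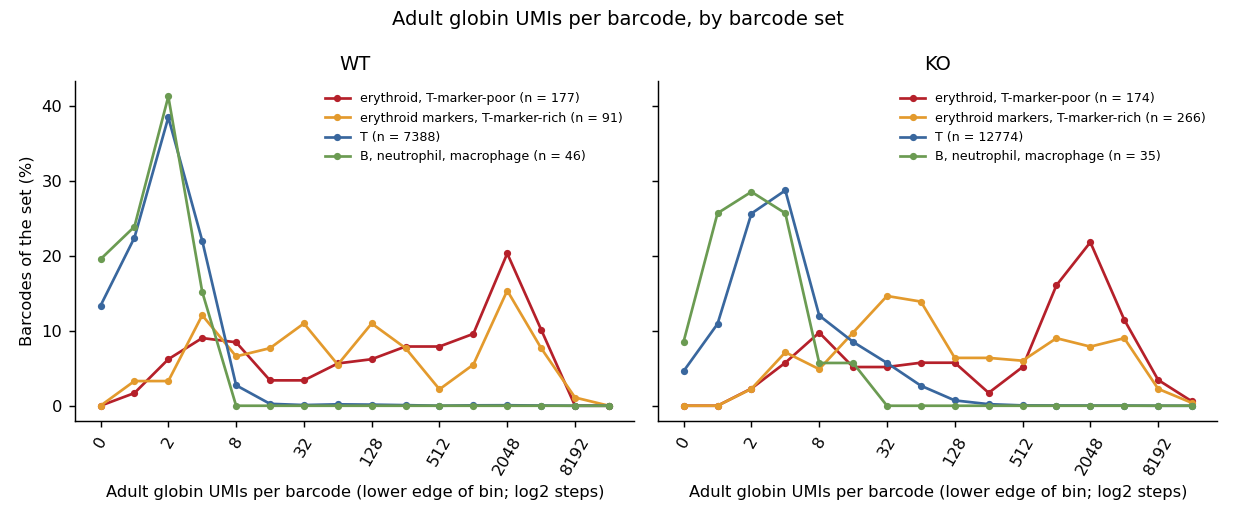
Share of barcodes (%, y axis) by adult globin UMIs per barcode (x axis, log2 steps) in each barcode set, with WT and KO in separate panels. T-marker-poor erythroid barcodes spread from few UMIs to many, with medians of 428 and 1281.5, whereas T barcodes sit at medians of 2 and 4.

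The adult beta globins varied widely among T-marker-poor erythroid barcodes. Hbb-bs, an adult beta gene, had 53331 CPM in WT and 111720 in KO. Per barcode, Hbb-bs ran from 0 through a median of 185 to 4164 UMIs in WT and from 1 through 629.5 to 7431 in KO. Hbb-bt, its neighbour and near copy, had 15466 and 31570 CPM, with per-barcode medians of 67 and 145.5 and highest values of 1158 and 2629. The ranges of the libraries overlapped for both genes, and the KO medians were higher.

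The alpha genes behaved in the same way. Hba-a1 had 27534 CPM in WT and 58660 in KO, with per-barcode medians of 137 and 335.5 and highest values of 2179 and 3746. Hba-a2 had 14789 and 35205 CPM, medians of 48 and 136.5, and highest values of 1333 and 3467. Both genes reached 0 UMIs in the lowest barcode of each library. Across barcodes, the alpha share and the beta share of UMIs went together, with a Spearman rho of 0.971 over 177 WT barcodes and 0.97 over 174 KO barcodes. These points share library and depth, and the value is a description.

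Alas2 was likewise far higher in erythroid than in T barcodes. In T-marker-poor erythroid barcodes it stood at 374 CPM (350 to 400) in the WT library and at 795 CPM (750 to 841) in the KO library. At least 1 Alas2 UMI was held by 61.0% of these barcodes in WT and 63.8% in KO, with medians of 2 and 4 UMIs and highest values of 38 and 47. In T barcodes Alas2 stood at 3.83 (3.30 to 4.43) and 11.6 (10.7 to 12.6) CPM, and 1.57% and 3.88% of barcodes held a UMI. Barcodes of B cells, neutrophils and macrophages, 46 in WT and 35 in KO, together held 1 and 0 Alas2 UMIs.

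**Figure D2:**
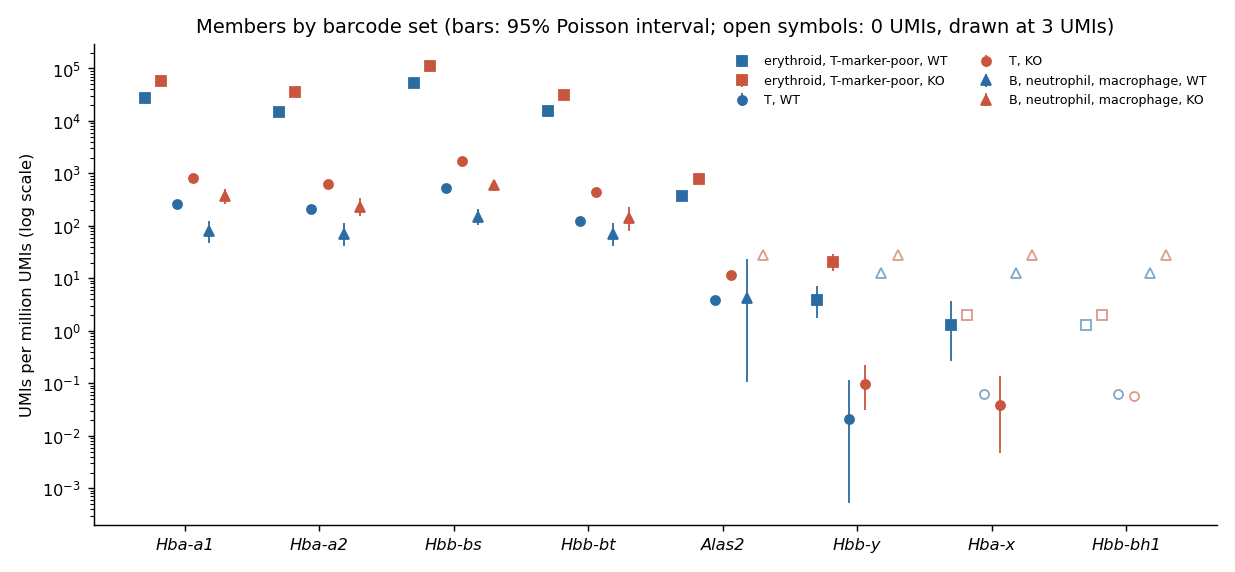
CPM (y axis, log scale) of each measured member in WT and KO, with 95% Poisson intervals as bars. Symbols mark T-marker-poor erythroid barcodes (squares), T barcodes (circles), and B cell, neutrophil and macrophage barcodes together (triangles). Open symbols mark 0 UMIs and are drawn at the level of 3 UMIs. All 4 adult globins and Alas2 lie far higher in erythroid than in T barcodes in both libraries, while Hbb-bh1 is at 0 throughout.

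The enzymes of heme synthesis were higher in strict erythroid than in T barcodes in both libraries, with Alas1 apart. Alas2 was 229-fold (187 to 280) higher in WT and 168-fold (149 to 189) higher in KO. Fech, which inserts iron into the ring as the last step, was 32.7-fold and 45.8-fold higher. Of the 9 enzymes, 8 were at least 2-fold higher in both libraries. The exception was Alas1, the housekeeping form of the first enzyme, with 1 UMI in WT and 0 in KO erythroid barcodes. Of 12290 genes with at least 50 UMIs over both classes, 384, or 3.12%, passed the same limit, with median ratios of 0.391 in WT and 0.199 in KO. All 5 members that could be tested passed it, and Hbb-bh1, Hbb-y and Hba-x had too few UMIs.

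Of 16 genes for handling of heme and iron, 6 passed the limit in CPM of all UMIs, among them Slc25a37, the mitochondrial iron importer, Tfrc, the transferrin receptor, and Blvrb, a biliverdin reductase of red cells. Tmem14c, a porphyrin carrier of the inner mitochondrial membrane, and both ferritin genes, Ftl1 and Fth1, did not pass it in both libraries. Globins fill much of the erythroid total, and per non-globin UMI 10 of the 16 passed, with Tmem14c at 4.83-fold and 3.62-fold, Ftl1 at 3.33-fold and 3.10-fold, Fth1 at 4.56-fold and 4.67-fold, and Slc11a2, an iron transporter, at 2.48-fold and 6.28-fold. On that scale 759 of the 12290 genes, or 6.18%, passed, with medians of 0.593 and 0.50. Of 11 regulators of globin transcription or translation, 7 passed, namely Gata1, Tal1, Lmo2, Nfe2, Zfpm1, Sox6 and Eif2ak1, and per non-globin UMI Bcl11a did too. Bcl11a had 9 WT but only 1 KO UMI in strict erythroid barcodes, with a KO ratio of 4.27 (0.107 to 24.3). Among the handling genes, Steap3 passed on 5 WT and 1 KO UMIs. Slc11a2 passed on 4 and 6, with a WT interval of 0.673 to 6.39. In CPM of all UMIs, the median ratios in WT and KO were 12.3 and 13.3 for the enzymes, 2.60 and 1.65 for the handling genes, and 9.33 and 2.54 for the regulators.

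T-marker-poor erythroid barcodes were next ordered by the share of their UMIs that came from adult globins. The share was below 1% in 57 WT and 49 KO barcodes, from 1% to 20% in 59 and 32, from 20% to 50% in 31 and 42, and at or above 50% in 30 and 51. Barcodes at or above 50% made up 16.95% of the WT set and 29.3% of the KO set and held 49.5% and 65.1% of its adult globin. Their median of other UMIs was low, at 1324 in WT and 1165 in KO, against 20710 and 5882 in barcodes below 1%. Globin-rich barcodes thus had fewer UMIs of other genes, and the Spearman rho of adult globin share with other UMIs was -0.653 in WT and -0.609 in KO, which shares the count of other UMIs on both sides.

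**Figure D3:**
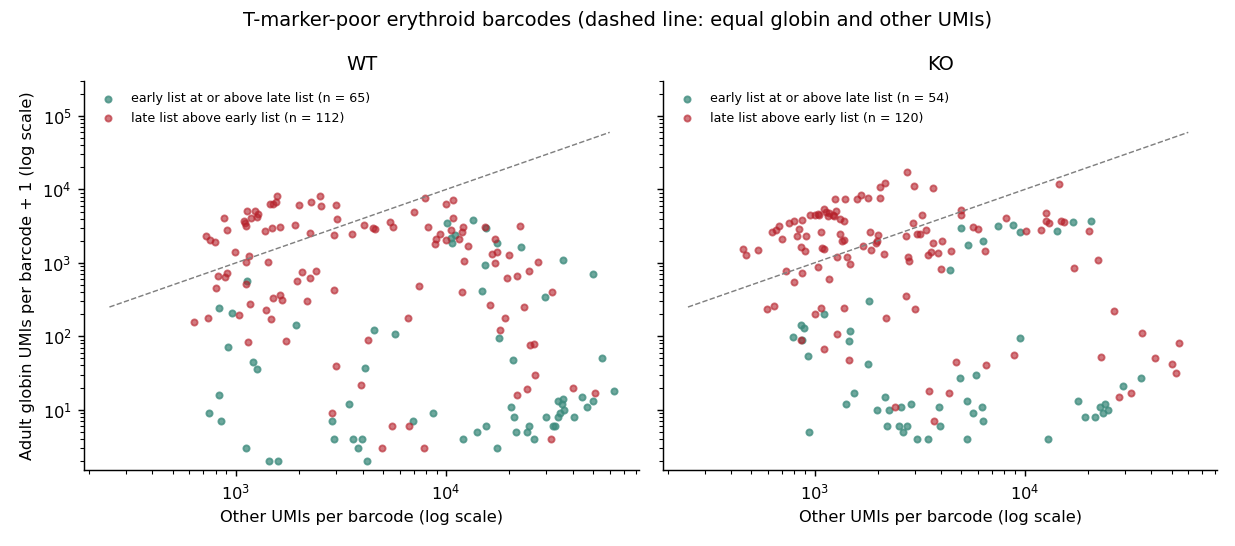
Adult globin UMIs plus 1 (y axis, log scale) against other UMIs (x axis, log scale) of each T-marker-poor erythroid barcode, 177 in WT and 174 in KO. Colours mark barcodes by whether a list of late erythroid genes had more UMIs than a list of early ones, with ties counted as early. The dashed line marks equal globin and other UMIs, above which 30 WT and 51 KO barcodes with 50% globin or more lie.

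Alas2 followed this order more steeply than the other enzymes. In non-globin CPM, a scale that globin itself does not enter, Alas2 went from 5.80 (2.33 to 11.95) below 1% globin through 361 and 1640 to 8046 (7244 to 8913) at or above 50% in WT. In KO it went from 2.86 (0.347 to 10.3) through 671 and 1726 to 10073 (9355 to 10831). Fech went up in the same order, from 50.6 to 2258 in WT and from 70.1 to 2197 in KO. The Spearman rho of Alas2 per non-globin UMI with the adult globin share was 0.875 in WT and 0.938 in KO. The count of other UMIs enters both sides of this rho too, so the value is a description.

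Other enzymes peaked earlier and were low in the globin-rich barcodes. Alad, the second enzyme of the pathway, went from 711 to 4246 non-globin CPM at 20% to 50% globin in WT and stood at 219 (105 to 403) at or above 50%. In KO it went from 733 to 4096 and stood at 1506 (1237 to 1817). Cpox, a later mitochondrial enzyme, had the same shape, with 1495 and then 548 in WT and 1507 and then 967 in KO. Uros went from 202 to 87.7 and from 176 to 96.7 over these last 2 steps, on 4 and 7 UMIs in the last. At or above 50% globin the intervals of Alad, on 10 WT and 109 KO UMIs, and of Alas2 did not overlap between the libraries, and those of Uros, Urod, Cpox, Ppox and Fech did.

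Transport and storage genes divided likewise. Slc25a37 reached 3508 non-globin CPM in WT and 2045 in KO in the globin-rich barcodes, from 14.9 and 21.5 below 1%. Tmem14c reached 2675 and 2214 at 20% to 50% globin and then stood at 154 and 207. Fth1, the ferritin heavy chain, went from 10781 to 4758 in WT and from 11097 to 5734 in KO over the same steps. Blvrb stayed high, at 3047 and 3896 in the last step. Slc25a37 was thus high and Tmem14c low in the barcodes with the most globin.

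Regulators of globin genes also changed along the order. Bcl11a, a repressor of embryonic and fetal-type beta globins, was highest below 1% globin, at 132 (112 to 154) non-globin CPM in WT and 119 (94.6 to 147) in KO, and had 1 UMI in WT and 0 in KO at or above 50%. Myb, a regulator of progenitor growth, was at 163 and 105 below 1% and had 1 and 0 UMIs in the globin-rich barcodes. Sox6, which acts with Bcl11a on the embryonic beta genes, went up instead, from 6.63 and 4.29 to 811 and 345. Kit, the stem cell factor receptor of early precursors, had 77 and 23 UMIs below 1% and 1 and 0 in all other barcodes. Bpgm, which makes the 2,3-bisphosphoglycerate of mature red cells, was at 18.2 and 15.7 below 1% and at 6709 and 5955 at or above 50%.

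The makeup of the adult globins shifted with this order as well. Beta globins were 45.8% (42.8 to 48.9) of adult globin UMIs in WT barcodes below 1% globin and 45.7% (42.8 to 48.5) in KO, then 53.6% and 53.9% from 1% to 5%. Above 5% they lay between 61.4% and 62.8% in WT and between 59.5% and 61.9% in KO. Hbb-bt as a share of beta was highest from 1% to 5% globin, at 31.2% in WT and 26.7% in KO, and was 21.5% and 21.8% in the richest barcodes. The KO value from 1% to 5% comes from 5 barcodes with 2055 adult globin UMIs, of which 2 barcodes held 1104 and 848. Alpha UMIs thus outnumbered beta UMIs in the barcodes below 1% globin. Those barcodes held medians of only 7 adult globin UMIs in WT and 11 in KO, with means of 18.5 and 24.7. T barcodes of 16000 or more non-globin UMIs had medians of 5 in WT and 11 in KO, and KO T barcodes of 4000 to 8000 had 4. The part that globin of the kind seen in T barcodes has in this beta share was not tested.

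Hba-a2 took a larger share of alpha UMIs in the richest barcodes. Below 1% globin Hba-a2 was 27.2% (23.6 to 31.05) of adult alpha UMIs in WT and 32.3% (28.7 to 36.0) in KO. Its share was lowest from 1% to 5%, at 21.1% (19.7 to 22.5) in WT and 17.7% (15.3 to 20.3) in the same 5 KO barcodes. At or above 80% it was 43.9% (43.2 to 44.7) and 43.9% (43.5 to 44.4). Where early erythroid genes were at or above late ones, in 65 WT and 54 KO barcodes, the share was 23.7% (22.8 to 24.5) and 23.8% (23.0 to 24.6), against 36.2% and 38.7% in the other barcodes. Car1, also 1 of the 18 red cell genes, gave 508 of the early list's 590 non-globin CPM in WT and 487 of 549 in KO. It stood at 487 and 475 below 1% globin and at 675 and 536 from 20% to 50%. Barcodes with 0 UMIs of both lists count as early, so this split is not a clean measure of stage. Since the copies differ so little, the part that read assignment has in this shift was not tested.

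**Figure D4:**
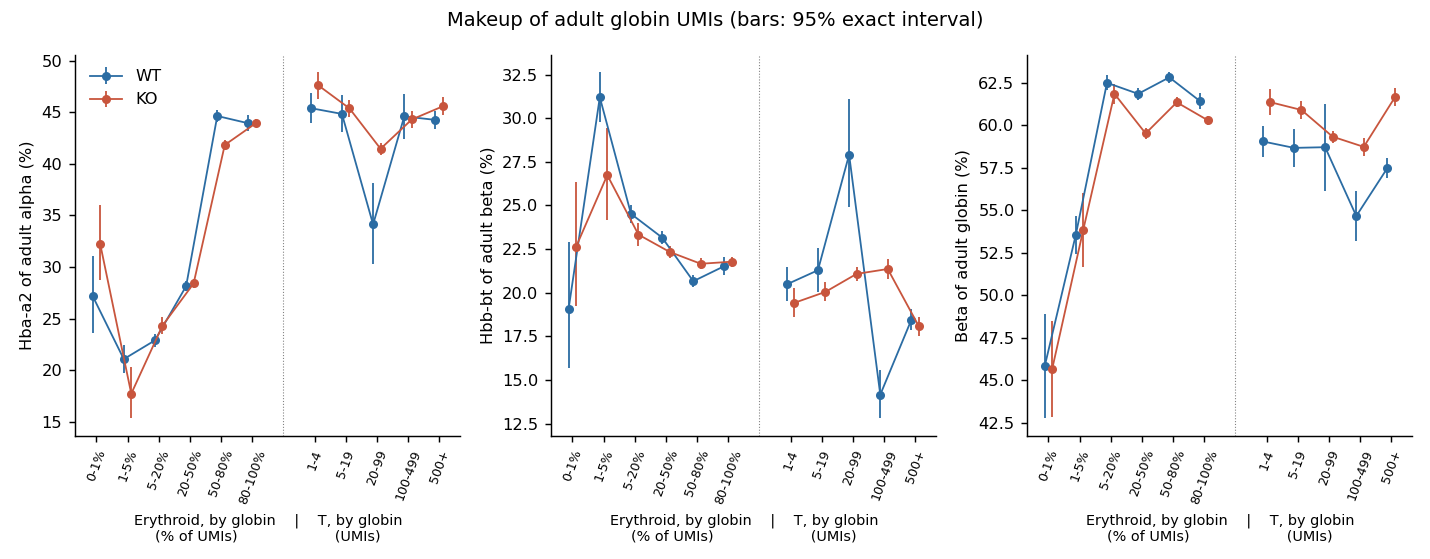
Share of beta in adult globin UMIs, of Hbb-bt in beta and of Hba-a2 in alpha (%, y axes) in T-marker-poor erythroid barcodes ordered by globin share and in T barcodes ordered by globin UMIs, with 95% exact intervals. Beta starts at 45.8% in WT and 45.7% in KO and ends at 61.4% and 60.3% in erythroid barcodes, and Hba-a2 ends at 43.9% in both.

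Embryonic globins were almost absent. Hbb-bh1 had 0 UMIs in either whole library, which allows up to 3. Hbb-y had 11 UMIs in the WT library and 39 in the KO library, of which 9 and 31 fell in T-marker-poor erythroid barcodes, in 4 barcodes of each. Hba-x had 3 UMIs in WT, all in 1 such barcode of 24376 UMIs, and 2 UMIs in KO, in 2 separate T barcodes.

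The KO Hbb-y UMIs came from very few barcodes. A group of 3 deep KO barcodes, of 20669, 16933 and 24508 UMIs, held 12, 9 and 9 of them, 30 in all. Each of these 3 had more UMIs of early than of late erythroid genes (39 against 11, 18 against 12, and 30 against 18) along with 3619, 2699 and 3765 adult globin UMIs. Hbb-y was at 3.84 CPM (1.76 to 7.30) in WT and 20.4 CPM (13.9 to 28.9) in KO, a ratio of 5.31 (2.47 to 12.7) that rests on these 3 barcodes, without which KO holds 1 UMI. All embryonic globins together were 0.00461% (0.00238 to 0.00806) and 0.00860% (0.00584 to 0.0122) of globin UMIs in T-marker-poor erythroid barcodes. In the strict erythroid barcodes they were at 0 UMIs, with upper bounds of 0.00432% and 0.00231%, so the value depends on which barcodes are called erythroid.

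T barcodes held at most 1 UMI of any embryonic globin each. Hbb-y had 1 UMI over 7388 WT T barcodes and 5 over 12774 KO T barcodes. Among the other globin family genes, Hbq1b, an alpha-like theta globin of adult red cells, had 36 and 40 UMIs in T-marker-poor erythroid barcodes, or 15.4 and 26.3 CPM, against 4 and 17 UMIs in T barcodes. Hbq1a had 1 and 6 UMIs there. Hbb-bh2, Cygb, Ngb and Mb were at 0 UMIs in them.

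KO erythroid barcodes carried more globin per UMI than WT erythroid barcodes. Adult globins were 34.2% (34.0 to 34.4) of UMIs in the 60 strict WT barcodes and 60.3% (60.1 to 60.5) in the 75 KO barcodes, a KO to WT ratio of 1.76 (1.75 to 1.78). The ratios were 1.87 (1.84 to 1.90) for Hba-a1, 1.82 (1.78 to 1.86) for Hba-a2, 1.69 (1.67 to 1.71) for Hbb-bs, 1.81 (1.76 to 1.85) for Hbb-bt and 2.22 (1.89 to 2.61) for Alas2. In T-marker-poor erythroid barcodes the adult ratio was 2.13 (2.12 to 2.15), from 11.1% and 23.7% of UMIs. Per barcode, the mean was 1470 adult globin UMIs in WT and 2072 in KO, a ratio of 1.41. The barcodes in these sets were not at the same point of the order above. Where early genes, mostly Car1, were at or above late ones, adult globins were 2.16% of UMIs in WT and 6.15% in KO, and where late genes were above, 20.4% and 31.4%. The part that this mix of barcodes and the difference in depth have in the ratio was not tested.

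Of 819 genes with at least 50 UMIs over both strict erythroid sets, 5.74% were at least 1.5-fold higher in KO and 61.5% at least 1.5-fold lower, with a median ratio of 0.56. All 5 tested members were higher. Since globins filled most of the KO UMIs, other genes were divided by a larger total. Per non-globin UMI the median over the 819 genes was 0.928, 23.6% were higher and 19.9% lower, the adult globin ratio was 2.92 (2.90 to 2.95), and all 5 members were higher again. On this scale 5 of 7 tested heme enzymes were higher, Alas2, Urod, Ppox and Fech among them, and 0 lower, with a median ratio of 2.14. In CPM of all UMIs, 2 of the 7, Alas2 and Ppox, were higher, with a median of 1.29. The Ppox ratio there was 1.59 (0.876 to 2.97), on 19 WT and 32 KO UMIs.

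The other lists moved with the choice of denominator. Of 7 tested handling genes, 0 were higher and 2 (Tmem14c and Fth1) lower in CPM of all UMIs, while per non-globin UMI 3 (Slc25a37, Abcb10 and Tfrc) were higher and 1 (Tmem14c) lower. Of 4 tested regulators, 0 and then 3 (Lmo2, Sox6 and Eif2ak1) were higher. Of 6 tested late erythroid genes, 4, with Bpgm, Tent5c and Xpo7 among them, and then all 6 were higher, and Car1, the 1 tested early gene, had a ratio of 0.598 and then 0.991. The median ratio of the late genes, 1.54 and then 2.56, stood above that of all genes tested on either scale.

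T cells are not of the red cell lineage, yet most T barcodes held some globin UMIs. Adult globins were 0.112% (0.111 to 0.113) of UMIs in WT T barcodes and 0.363% (0.361 to 0.364) in KO T barcodes, with means of 7.33 and 14.79 UMIs per barcode and medians of 2 and 4. They held 12.4% and 20.9% of kept adult globin. Barcodes with 0 globin UMIs were 987, or 13.4%, in WT and 591, or 4.63%, in KO. Barcodes of B cells, neutrophils and macrophages, which are not of that lineage either, had medians of 2 and 3 and highest values of 6 and 28.

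Depth had to be equalised before these shares could be compared. After each barcode was thinned to 1000 UMIs, 35.2% (34.0 to 36.3) of WT T barcodes and 68.3% (67.4 to 69.1) of KO T barcodes held an adult globin UMI. The other lineages gave 38.1% (23.6 to 54.4) and 69.0% (49.2 to 84.7), and T-marker-poor erythroid barcodes 86.6% and 90.4%. Shallower barcodes were left out, 962 and 1033 of the T barcodes and 4 and 6 of the other lineages. Unthinned shares were 86.6% and 95.4% in T barcodes and 80.4% and 91.4% in the other lineages, at median depths of 5074 and 2726.5 UMIs and of 3176 and 1891. After thinning, the T share lay inside the interval of the other lineages in both libraries, which is wide on 42 WT and 29 KO barcodes. Unthinned, the deeper T barcodes had the higher share. Whether the UMIs in T barcodes came from background or expression was not tested.

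The proportions of the genes in T barcodes were set beside those of erythroid barcodes, and how close they came depended on the library, the gene pair and the erythroid set. The beta share of adult globin was 57.8% (57.4 to 58.2) in WT T barcodes, 4.19 percentage points below the strict erythroid barcodes (a difference of -4.19, -4.72 to -3.66). In KO it was 60.1% (59.9 to 60.3), with a difference of -0.0518 points (-0.379 to 0.275). Alas2 UMIs per 100 adult globin UMIs were 0.342 (0.294 to 0.394) and 0.320 (0.295 to 0.347) in T barcodes, 0.256 (0.224 to 0.293) and 0.323 (0.295 to 0.352) in strict erythroid barcodes, and 0.337 and 0.335 in T-marker-poor erythroid barcodes. Hba-a2 was 44.3% (43.68 to 44.98) and 43.9% (43.5 to 44.2) of alpha in T barcodes, above 42.5% (41.9 to 43.0) and 41.8% (41.4 to 42.2) in strict and 34.9% and 37.5% in T-marker-poor erythroid barcodes. By globin share it was 44.6% and 41.8% in erythroid barcodes of 50% to 80% globin and 43.9% in both libraries at or above 80%. T barcodes with 1 to 4 globin UMIs gave 45.4% (44.0 to 46.8) and 47.6% (46.3 to 48.9).

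Globin was unevenly spread over T barcodes in both libraries. In WT, 57 T barcodes, or 0.772%, had 20 or more adult globin UMIs and held 65.5% of all T barcode globin, and 31 with 100 or more held 62.9%. In KO, 1964, or 15.4%, had 20 or more and held 73.3%, and 233, or 1.82%, with 100 or more held 36.3%. These KO barcodes of 20 or more were shallow, with a median of 1392.5 non-globin UMIs, and carried red cell genes at 242 non-globin CPM against 48.7 over all KO T barcodes. Alas2 stood at 94.9 against 11.7 and Foxp3 at 21.8 against 44.6 on that scale. Foxp3 was at 38.2 in all KO T barcodes of 1000 to 2000 non-globin UMIs. The 57 WT barcodes had a median of 827 non-globin UMIs and red cell genes at 614 against 34.3. Their Alas2 stood at 577 against 3.84 and their Foxp3 at 37.2 against 40.3, so the lower Foxp3 of the KO barcodes was not seen to that extent in WT. Among T barcodes of 100 or more globin UMIs, 5 of 31 in WT and 11 of 233 in KO had doublet scores in the top 5% and 8% of their library.

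Split by depth, the difference between the medians of KO and WT was largest in the shallowest T barcodes. Below 1000 non-globin UMIs, KO T barcodes had a median of 9 adult globin UMIs and WT T barcodes of 1, and 37.4% and 3.58% had 20 or more. From 4000 to 8000 UMIs the medians were 4 and 2, and 2.47% and 0.187% had 20 or more. At or above 16000 the medians were 11 and 5, and 8.05% and 0.384% had 20 or more. KO medians were higher at every depth step, while in KO the mean of barcodes under 100 globin UMIs was 17.9 in the shallowest step and 4.92 from 4000 to 8000. S100a8, a neutrophil granule gene, had means of 1.37 UMIs below 1000, 0.506 from 4000 to 8000 and 1.09 at or above 16000 in KO T barcodes, and of 0.432, 0.748 and 1.58 in WT, where it went up with depth at these steps.

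**Figure D5:**
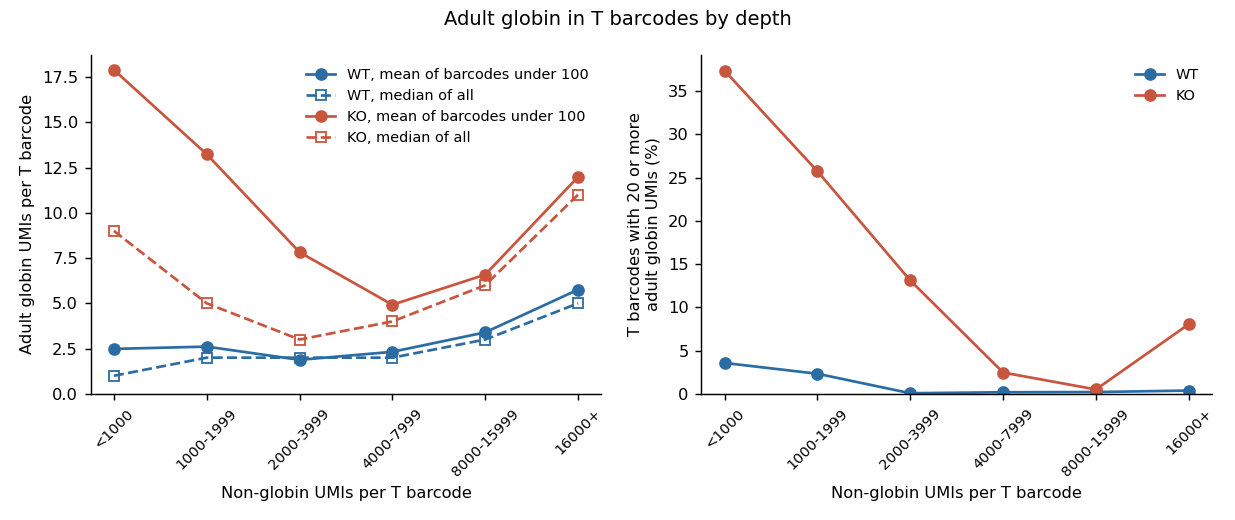
Left, adult globin UMIs per T barcode (y axis; solid lines, mean of barcodes under 100; dashed lines, median of all) by non-globin UMIs per barcode (x axis) in WT and KO. Right, share of T barcodes with 20 or more adult globin UMIs (%), which is 37.4% in the shallowest KO barcodes against 3.58% in WT.

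In T barcodes the KO to WT ratio of adult globin CPM was 3.23 (3.20 to 3.26), and per barcode it was 2.02. Without barcodes of 100 or more globin UMIs, a choice made after seeing the data, the ratios were 5.58 and 3.51, and with a minimum of 500 genes they were 6.14 and 3.49. Hba-a1 had 264 and 813 CPM in WT and KO, Hba-a2 210 and 636, Hbb-bs 524 and 1738, and Hbb-bt 124 and 442. The ratios of the 4 globins lay between 3.03 and 3.55, and that of Alas2 was 3.03 (2.57 to 3.59). In the other lineages the adult globin ratio was 3.63 (2.76 to 4.78) in CPM, on 89 and 143 UMIs, and 2.11 (1.61 to 2.78) per barcode. Neutrophils held 65 of these WT UMIs and 117 of these KO UMIs, with 28 in a single KO barcode. Per barcode, the Hbb-bt ratio in the other lineages was 1.16 (0.539 to 2.47). The summed adult globin level was thus also higher in KO outside T barcodes, on UMIs that were mostly from neutrophils.

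Among 12276 genes with at least 50 UMIs over both T sets, 5.98% were at least 1.5-fold higher in KO and 12.5% at least 1.5-fold lower, with a median ratio of 0.953. All 5 tested members were higher. Of the 9 heme enzymes, Alas2 alone was higher and 0 were lower, with a median of 1.01. Of 16 handling genes 0 were higher and 1, Abcb10, was lower, and of 11 regulators 3, Gata1, Nfe2 and Sox6, were higher. The 8 enzymes other than Alas2, which T cells also express, did not reach the limit.

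Barcodes removed for high mitochondrial content held globin UMIs as well. The 6468 WT and 4364 KO barcodes had means of 2.97 and 5.67 adult globin UMIs and medians of 1 and 3. Barcodes that fitted no class, 143 in WT and 85 in KO, had means of 10.85 and 72.5.

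Hba-a1 was the gene closest to Hbb-bs over the 16 combinations of barcode class and library, with a Pearson r of 0.995 on log2(CPM + 1). Alas2 gave 0.919, Hba-a2 0.895 and Hbb-bt 0.884. Outside the members and marker lists, the 10 genes most like Hbb-bs included Rsad2 (0.979), Tspo2 (0.972), Cdr2 (0.967), Tmcc2 (0.939), Gfi1b (0.927), Gm15915 (0.925), Ctse (0.924), Mt2 (0.917) and Brpf3 (0.912). Rsad2 stood at 412 CPM in WT and 1124 in KO strict erythroid barcodes, against 1.84 and 6.64 in T barcodes. Tspo2, an erythroid member of the translocator protein family, stood at 208 and 269 against 1.10 and 2.30. The points share libraries and include classes of very few barcodes, so r is a description.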

How the data were processed

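Sorted spleen cells (YFP+ 7AAD- per the labels, CD4+ YFP+ 7AAD- per the study's methods) of WT and KO mice at 7 days of age were run on the 10x Genomics Chromium Single Cell V3 platform, 1 library per genotype. The authors deposited raw UMI counts per gene and barcode, made per the submitters' processing notes with Cell Ranger 5.0.1 on mm10, with barcodes of high mitochondrial content still in the files. Cell Ranger counts only reads assigned to 1 gene, which bears on near-identical globin copies. The filter was 300 genes or more and 5% mitochondrial UMIs or less. A lineage was present with 3 or more of its marker genes, and T barcodes had 2 or more T genes and no other lineage. Counts were summed per class and library, and expressed per 1000000 UMIs (CPM), of all genes or of all but the 7 globin members. Ratios carry exact conditional binomial intervals, levels exact Poisson intervals and shares exact Clopper-Pearson intervals, all at 95%. These cover counting error only, and a count of 0 allows up to 3. No p-value was computed, since each genotype had 1 library. Genes were called on 50 UMIs or more, at 1.5-fold between genotypes and 2-fold in both libraries between classes. Doublets were not removed. A Scrublet alternative dropped the top 5% of scores in WT and the top 8% in KO. The members and lists were chosen with earlier results of these data known, and the T-marker-poor set and the set of T barcodes under 100 globin UMIs were added after seeing these values. All members were named, with at most 8 genes per list and the 10 genes with 500 UMIs or more most like Hbb-bs. Values of some genes of these lists are not reported here. The steps were tested on simulated data and run in Python 3.11.15 with numpy 2.4.6, pandas 2.3.3, scipy 1.17.1, scanpy 1.11.5, biopython 1.88 and matplotlib 3.10.9.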

Additional observations from a re-analysis of the deposited data

Results flagged for a closer look

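Barcodes outside the comparisons also held globin. Barcodes over 5% mitochondrial UMIs had a mean of 2.97 adult globin UMIs in WT and 5.67 in KO. The 3 KO barcodes under 300 genes held 2275 adult globin UMIs, 65.4% of their 3479 UMIs, while the 3 such WT barcodes held 1 of 2029.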

How the results depend on the processing

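No paired analysis was possible because each genotype has 1 library, and no replicate could be left out. The direction of the KO to WT ratios held under every alternative run: 40 member ratios in erythroid barcodes lay between 1.58 and 3.68. Below, values follow the order no mitochondrial filter, at least 500 genes, 2 marker genes and 5 marker genes. The share of adult globin UMIs in erythroid barcodes (19.6% in WT, 17.6% in KO) was 18.8%, 18.8%, 20% and 15.3% in WT and 17.3%, 13.6%, 18.7% and 13.8% in KO. The erythroid ratio (1.76) was 1.82, 1.75, 1.73 and 1.73, the T barcode ratio (3.23) was 3.05, 6.14, 3.14 and 2.89, and the ratio per T barcode (2.02) was 2.49, 3.49, 1.99 and 1.80. Without the highest Scrublet scores the shares were 19.8% and 18.5% and the ratio per T barcode 2.04. Per non-globin UMI the erythroid ratio was 2.92, and as a mean over barcodes it was 1.61, with 3.27 in T barcodes. With the T marker level setting the erythroid class, the shares were 59.6% and 39.9%, the ratio 2.13 and the embryonic shares 0.00461% and 0.00860%. Without T barcodes of 100 or more globin UMIs the T ratios were 5.58 and, per barcode, 3.51. The difference in beta share (-4.19 points in WT, -0.0518 in KO) was -3.34 with at least 500 genes and -3.08 without those T barcodes in WT. In KO it was -0.50 with 2 marker genes, and its sign turned to 0.737 with at least 500 genes and to 0.678 with 5 marker genes. The cause of these shifts was not tested. Per non-globin UMI, a scale for the calls added after seeing the data, 193 instead of 47 genes were higher and 163 instead of 504 lower in KO erythroid barcodes, and 759 instead of 384 were higher in erythroid than in T barcodes.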
